A study of Homo sapiens with 14 samples.

Results

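Aminoacyl-tRNA synthetases, the enzymes that attach each amino acid to its tRNA, were followed in human T cell acute lymphoblastic leukemia cells after knockdown of a histone H3 lysine 27 demethylase. The members were the rows of the deposited count tables whose gene symbol was in a list of 35 synthetase symbols, 20 cytosolic and 15 mitochondrial, the mitochondrial names ending in the digit 2. Of these, 34 were found by symbol among the 55075 genes of the tables, all 20 cytosolic and 14 mitochondrial. SARS2, the mitochondrial enzyme for serine, was not found by symbol. The identifier that GENCODE release 29 gives to SARS2, ENSG00000104835, carries the symbol FBXO17 in the tables, so its row is given apart and is in no count.

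RNA was sequenced from CUTLL1 and CEM, established human T cell leukemia lines, infected with retroviruses that carry a short hairpin. The labels list 3 CUTLL1 and 2 CEM samples with a hairpin against JMJD3 (gene KDM6B, here shJMJD3), 2 and 2 with a hairpin against UTX (gene KDM6A, shUTX), and 3 and 2 with a control hairpin against Renilla luciferase (shRenilla), an enzyme that human cells lack. All groups were infected, and no uninfected cells are labelled. The tables hold 1 count column per hairpin and line, and the sources used here do not say which libraries each column pools, so no spread between replicates can be given within a line. The time between infection and harvest is not given either.

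Column totals were between 70280185 and 174301733 counts for the hairpins against JMJD3 and UTX and between 104190473 and 258014046 for shRenilla. The CUTLL1 shRenilla column differed between tables: the larger, with 258014046 counts, was paired by the authors with shJMJD3, and the smaller, with 144394369, with shUTX. Subtracting the smaller from the larger left a remainder of 113619677 counts. T cell markers were abundant, with at least 1841 CPM (counts scaled to a common column total) in sum over 6 genes, and MS4A1, the B cell protein CD20, had 0 counts in every column. The targeted genes were lower: KDM6B was at 52.2 CPM in shJMJD3 cells against 206 in shRenilla cells of CEM, and at 10.9 against 18.8 in CUTLL1. In the same order, KDM6A was at 51.5 CPM in shUTX cells against 136 in shRenilla cells of CEM, and at 19.3 against 43.0 in CUTLL1.

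Cells keep separate synthetases for cytosolic and for mitochondrial translation, and nearly all are encoded in the nucleus by separate genes. Cytosolic enzymes for several amino acids sit together in the multisynthetase complex, held by scaffold proteins, while others work alone. Many cytosolic synthetase genes are known targets of ATF4, the transcription factor that is translated when uncharged tRNA or other stress leads to phosphorylation of the initiation factor eIF2. ATF4 binds, with C/EBP partners, to elements with the core TGATGNAA, where N is any base. GARS and KARS are known to supply both compartments from a single gene, and EPRS joins the enzymes for glutamate and proline in a single protein.

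Levels are given in CPM scaled to column totals. Ratios are log2 ratios scaled with TMM, edgeR's trimmed mean of M values, with a prior count of 2, so they need not equal the ratio of the CPM beside them. Their 95% intervals are exact binomial and cover counting error only. Within a line a gene is called higher or lower where it was at least 1.5-fold apart (0.585 on the log2 scale), with at least 50 counts in either column. All 34 members passed that count minimum, with at least 685 counts in every deposited column.

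Cytosolic synthetases were the more abundant list. Their summed level was 3538 CPM with shJMJD3, 5702 with shUTX and 5672 with shRenilla in CEM. In CUTLL1 it was 3160 CPM with shJMJD3, 4455 with shUTX, 3567 in the larger and 4590 in the smaller shRenilla column. The CEM shJMJD3 sum was below both other CEM columns, and in CUTLL1 the shJMJD3 sum was below the shUTX column and both deposited control columns. The CUTLL1 shJMJD3 sum was above the 2267 CPM of the control remainder, so its direction depended on the part of the control used. The mitochondrial sum was 456 CPM with shJMJD3, 533 with shUTX and 548 with shRenilla in CEM. It was 416 with shJMJD3, 516 with shUTX, 500 (larger) and 586 (smaller) with shRenilla in CUTLL1. Per kilobase of exon, the median cytosolic level in CEM was 54.2 CPM in shJMJD3 cells, 81.6 in shUTX cells and 82.9 in shRenilla cells, and the median mitochondrial level was 9.81, 9.37 and 9.91 in the same order. In bulk RNA, fewer cells that express a gene and less of its RNA per cell cannot be told apart.

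The question for shJMJD3 against shRenilla is which genes depend on JMJD3, and in CEM the cytosolic synthetases spread in both directions. Of 20 cytosolic members, 9 were at least 1.5-fold lower with shJMJD3, 2 were higher and 9 lay between. Over all 16998 genes measured in that comparison, 23.9% were at least 1.5-fold lower and 22.4% higher. The median log2 ratio was -0.45 over the cytosolic members and -0.02 over all genes. Of 14 mitochondrial members 1 was lower and 0 higher, with a median of 0.06, so the cytosolic median lay below that of all genes and the mitochondrial median close to it. Cytosolic ratios ran between -1.51 and 1.72 and mitochondrial ratios between -0.63 and 0.56. With 1 column per hairpin this difference between the lists has no replicate check.

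Markers of other cells differed between the same CEM columns. The 3 myeloid markers, each with a count in these CEM columns, summed to 6.40 CPM in shJMJD3 cells and 0.230 in shRenilla cells. They summed to between 1.83 and 3.10 CPM in the deposited CUTLL1 columns, where LYZ had no count with shJMJD3. B cell markers summed to 0.925 CPM in shJMJD3 cells and 0.336 in shRenilla cells of CEM, with MS4A1 at 0. The T cell sum was 2633 CPM in shJMJD3 cells and 2746 in shRenilla cells. Their part in the synthetase ratios was not tested.

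IARS, which charges the isoleucine tRNA, was the lowest. It had 199 CPM in CEM shJMJD3 cells, 708 in shUTX cells and 703 in shRenilla cells, a log2 ratio of -1.51 (95% interval -1.54 to -1.48) between shJMJD3 and shRenilla. The shJMJD3 column held 35.1% of the scaled shRenilla level, while the shUTX and shRenilla columns were nearly level. SARS, the serine enzyme, had 112 CPM in CEM shJMJD3 cells, 395 in shUTX cells and 378 in shRenilla cells, a ratio of -1.44 (95% interval -1.48 to -1.41). MARS, which charges both methionine tRNAs of the cytosol, had 158 CPM in CEM shJMJD3 cells, 462 in shUTX cells and 520.4 in shRenilla cells, a ratio of -1.41 (95% interval -1.44 to -1.38). In each of these genes the shJMJD3 column alone stood low. MARS shares 62 exonic bases on the opposite strand with DDIT3, itself an ATF4-pathway gene, and the sources used here do not say whether the authors counted by strand.

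WARS, the tryptophan enzyme, is also a well known interferon gamma target. It had 71.6 CPM in CEM shJMJD3 cells, 252 in shUTX cells and 225 in shRenilla cells, a ratio of -1.34 (95% interval -1.38 to -1.30). AARS, for alanine, had 145 CPM in CEM shJMJD3 cells, 423 in shUTX cells and 402 in shRenilla cells, a ratio of -1.16 (95% interval -1.19 to -1.13). Both genes were low in the shJMJD3 column only. LARS charges the leucine tRNA and is known as a leucine sensor of the mTORC1 pathway, and it had 180.2 CPM in CEM shJMJD3 cells, 369 in shUTX cells and 387 in shRenilla cells, a ratio of -0.79 (95% interval -0.82 to -0.76). GARS, for glycine, had 190.1 CPM in CEM shJMJD3 cells, 419 in shUTX cells and 401 in shRenilla cells, a ratio of -0.77 (95% interval -0.80 to -0.74). YARS, for tyrosine, had 231 CPM in CEM shJMJD3 cells, 405 in shUTX cells and 432 in shRenilla cells, a ratio of -0.59 (95% interval -0.62 to -0.57), and CARS, for cysteine, had 52.0 CPM in CEM shJMJD3 cells, 94.3 in shUTX cells and 96.9 in shRenilla cells, a ratio of -0.59 (95% interval -0.64 to -0.53). YARS and CARS lay just past the 1.5-fold limit, and the intervals of both cross it.

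**Figure D1:**
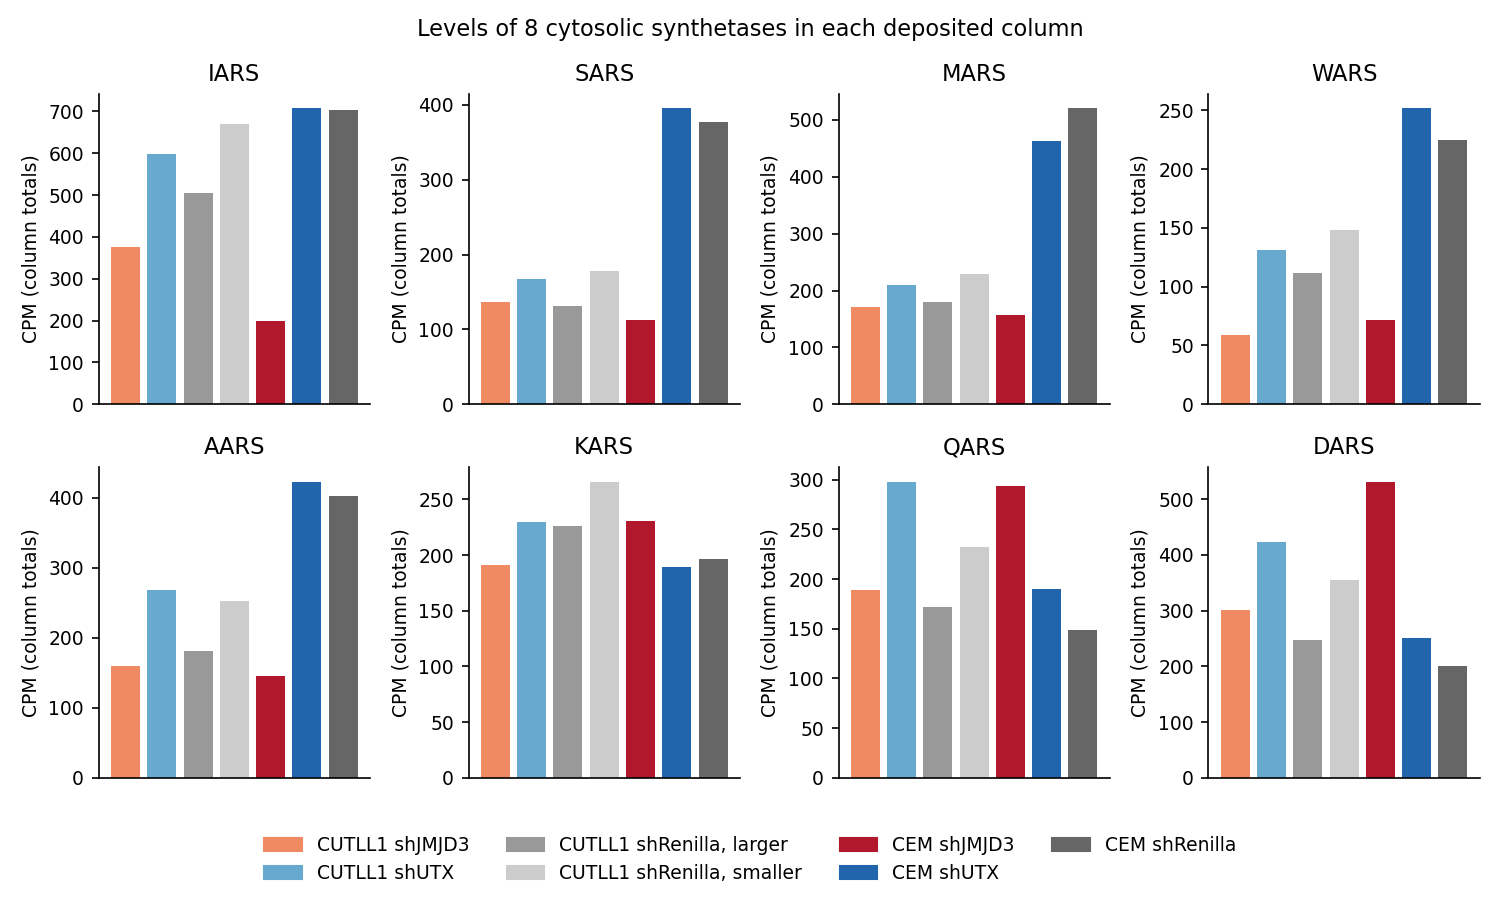
Levels of 8 cytosolic synthetases in CPM (scaled to column totals, vertical axes starting at 0), 1 bar per deposited column with no replicates. IARS, SARS, MARS, WARS and AARS are lowest in the CEM shJMJD3 bar among the CEM columns, and QARS and DARS are highest there.

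DARS and QARS went the other way. DARS, the aspartate enzyme, had 531 CPM in CEM shJMJD3 cells, 251 in shUTX cells and 199.7 in shRenilla cells, a ratio of 1.72 (95% interval 1.70 to 1.75). QARS, the glutamine enzyme, had 294 CPM in CEM shJMJD3 cells, 189.7 in shUTX cells and 149 in shRenilla cells, a ratio of 1.29 (95% interval 1.26 to 1.32). Both belong to the multisynthetase complex, as do IARS, MARS and LARS, which were lower. DARS shares 114 exonic bases on the opposite strand with DARS-AS1. With the column totals as scale, DARS and QARS were still the only 2 members called higher, and 17 members were called lower.

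The remaining 9 cytosolic members lay within 1.5-fold. KARS, for lysine, had 230.3 CPM in CEM shJMJD3 cells, 189 in shUTX cells and 197 in shRenilla cells, a ratio of 0.54, short of the limit. HARS, for histidine, had a ratio of 0.43, and it shares 402 exonic bases on the opposite strand with HARS2, at 0.24. The subunits of the cytosolic phenylalanine enzyme, FARSA and FARSB, had ratios of -0.46 and 0.24. VARS (valine) was at -0.44, TARS (threonine) at -0.39, NARS (asparagine) at -0.16, EPRS at 0.05 and RARS (arginine) at 0.21. These values lie on both sides of 0, as do those of the members called, most of which were lower.

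Enzymes of the complex lay at both ends of the range. The 8 complex enzymes (DARS, EPRS, IARS, KARS, LARS, MARS, QARS and RARS) had a median of 0.13, with 3 lower and 2 higher, and ran over the whole cytosolic range. The 12 cytosolic enzymes outside the complex had a median of -0.52, with 6 lower and 0 higher. Over all genes with shJMJD3 over shRenilla in CEM 23.9% were lower and 22.4% higher. The 2 higher of 8, DARS and QARS, are close to that share. Of the scaffolds that hold the complex, AIMP2 had a ratio of -0.69, EEF1E1 of -0.48 and AIMP1 of 0.22. By catalytic fold, 18 class I enzymes of both compartments had a median of -0.45 and 15 class II enzymes a median of 0.23. EPRS, which holds a catalytic domain of each class, is in neither count.

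**Figure D2:**
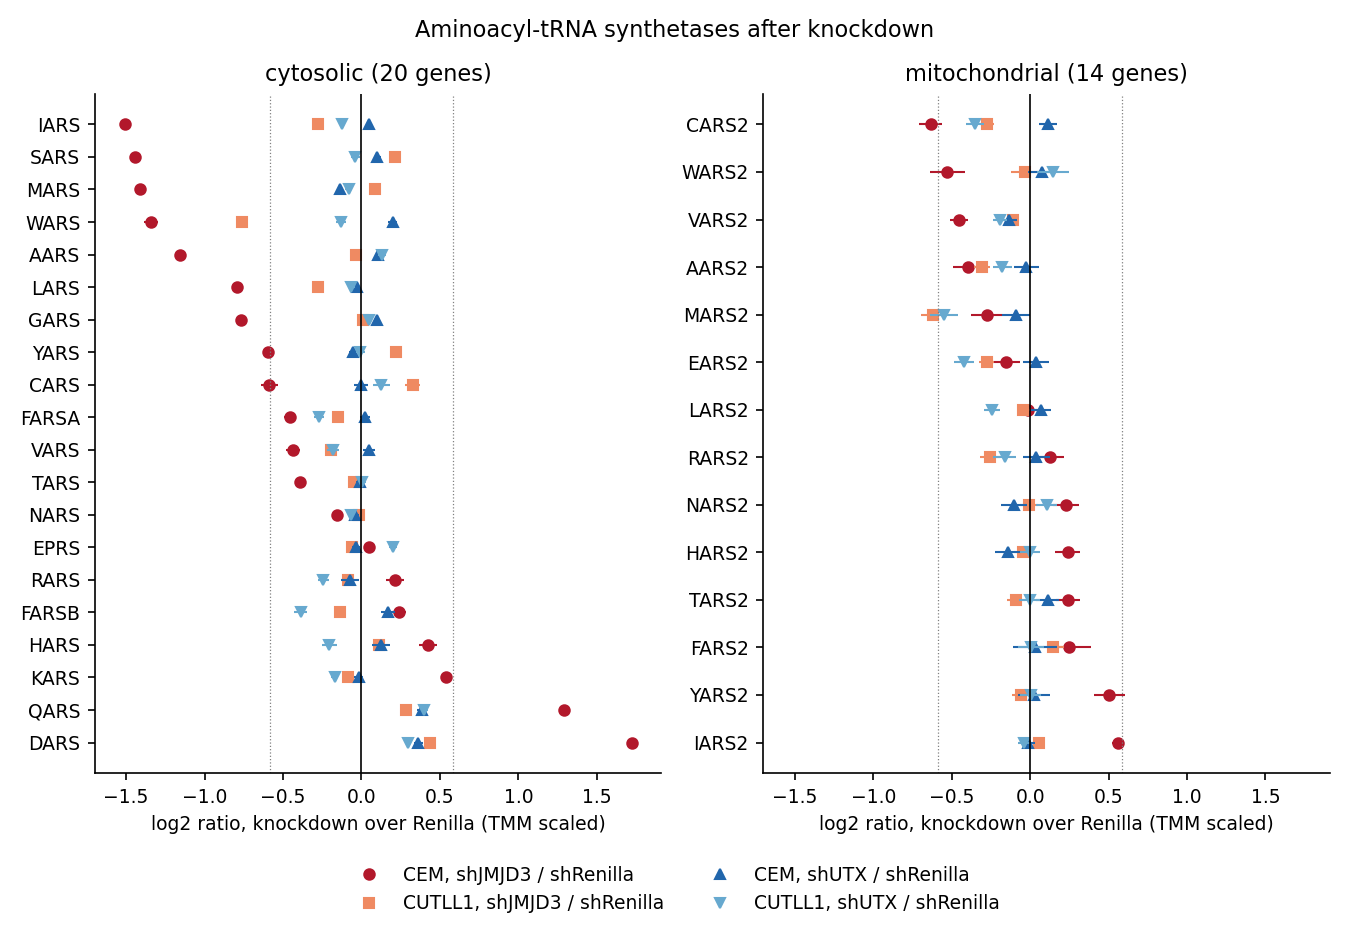
Log2 ratio of each knockdown over shRenilla (horizontal axis, TMM scaled) for the 20 cytosolic and 14 mitochondrial synthetases, ordered by the CEM shJMJD3 ratio; bars are 95% binomial intervals for counting error and dotted lines mark 1.5-fold. The CEM shJMJD3 points spread from -1.51 to 1.72 among cytosolic enzymes, while the CEM shUTX points stay between -0.14 and 0.38.

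The promoters of the members were searched for the core that ATF4 binds. RefSeq promoters (GRCh38.p14, 250 bases before to 50 after each start site) were matched for 28 of the 34 members, and TGATGNAA was searched on both strands. The core occurred in 8 of the 28 matched members (28.6%), where it occurred in 1217 of 27305 genes of the table (4.46%). Counted per promoter it occurred in 8 of 37 of the members (21.6%) and in 1270 of all 35116 (3.62%). The 8 members were AARS, CARS, GARS, IARS, MARS, NARS, TARS and the mitochondrial YARS2. DARS, LARS, VARS, YARS, AARS2 and VARS2 were not matched. The 30 bases around each match are shown on the gene's strand, 5′ to 3′, with the core in capitals, because 5 of them are among the 9 cytosolic genes called lower in CEM:
AARS (chr16:70289675-70289704, minus strand): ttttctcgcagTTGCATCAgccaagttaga
CARS (chr11:3057407-3057436, minus strand): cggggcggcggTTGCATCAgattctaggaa
GARS (chr7:30594834-30594863, plus strand): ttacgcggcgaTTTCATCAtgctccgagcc
IARS (chr9:92293692-92293721, minus strand): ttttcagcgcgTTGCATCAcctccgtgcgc
MARS (chr12:57488053-57488082, plus strand): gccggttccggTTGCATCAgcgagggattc
NARS (chr18:57621804-57621833, minus strand): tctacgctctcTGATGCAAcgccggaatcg
TARS (chr5:33440956-33440985, plus strand): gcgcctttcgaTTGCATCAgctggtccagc
YARS2 (chr12:32756076-32756105, minus strand): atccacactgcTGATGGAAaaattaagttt
In 6 of these the core reads TGATGCAA or TGATGAAA on the opposite strand, and so appears as TTGCATCA or TTTCATCA. NARS and YARS2 carry it on the gene's own strand. The matches in CARS, GARS, IARS, MARS, NARS and TARS lie within 33 bases of the start site, and those of AARS and YARS2 begin 187 and 197 bases before it. The matched AARS promoter was not found to continue into a GENCODE transcript, so its tie to the gene is less certain.

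Among the cytosolic genes with a matched promoter, those with the core stood lower in CEM than those without it. DARS, the highest member, LARS and YARS, both called lower, and VARS had no matched promoter and are in neither group. The 7 with a match had a median CEM ratio of -0.77 for shJMJD3 over shRenilla, between -1.51 and -0.16, all below 0 and 5 of them at least 1.5-fold lower. The 9 matched without it had a median of 0.21, with 3 below 0, 2 at least 1.5-fold lower (SARS and WARS) and 1 higher (QARS). Over all genes of that comparison 23.9% were lower and 22.4% higher. YARS2, the mitochondrial gene with the core, had a ratio of 0.50. A match is a description of letters in these windows, and no binding was measured.

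Mitochondrial synthetases in CEM stayed closer to shRenilla with shJMJD3. CARS2, for cysteine, was the member called lower and had 29.2 CPM in CEM shJMJD3 cells, 59.3 in shUTX cells and 56.2 in shRenilla cells, a ratio of -0.63 (95% interval -0.71 to -0.56). IARS2, for isoleucine, had 129.7 CPM in CEM shJMJD3 cells, 105 in shUTX cells and 109 in shRenilla cells, a ratio of 0.56 (95% interval 0.52 to 0.60), short of the limit. These 2 genes mark both ends of the mitochondrial range. WARS2, for tryptophan, had 13.0 CPM in CEM shJMJD3 cells, 23.8 in shUTX cells and 23.2 in shRenilla cells, a ratio of -0.53. VARS2, for valine, had 45.7 CPM in CEM shJMJD3 cells, 68.9 in shUTX cells and 77.6 in shRenilla cells, a ratio of -0.45, and AARS2, for alanine, had 18.2 CPM in CEM shJMJD3 cells, 28.6 in shUTX cells and 29.8 in shRenilla cells, a ratio of -0.40. The other 9 lay between -0.28 (MARS2) and 0.50 (YARS2). ENSG00000104835, the row that corresponds to SARS2, had 34.2 CPM in CEM shJMJD3 cells, 23.4 in shUTX cells and 22.1 in shRenilla cells, a ratio of 0.94 (95% interval 0.86 to 1.02), past 1.5-fold. In CUTLL1 its ratio was -0.12. That row shares 1492 exonic bases on the same strand with AC011455.2, annotated as protein coding, and 349 on the opposite strand with MRPS12, a mitochondrial ribosomal protein gene.

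Within pairs that serve the same amino acid, the cytosolic gene was more often the lower of the pair in CEM with shJMJD3. Its ratio for shJMJD3 over shRenilla lay below that of its mitochondrial partner in 10 of 15 pairs, with a median difference of -0.63. The widest of these 15 pairs was isoleucine, with IARS at -1.51 and IARS2 at 0.56. The serine pair is not among them, since SARS2 was not found by symbol. SARS and the row that corresponds to SARS2, both given above, lie further apart than the isoleucine pair. Methionine followed, with MARS at -1.41 and MARS2 at -0.28, and tyrosine, with YARS at -0.59 and YARS2 at 0.50. The cysteine and valine pairs had nearly the same ratio in both compartments, with CARS at -0.59 beside CARS2 at -0.63 and VARS at -0.44 beside VARS2 at -0.45. FARSA and FARSB were each set beside FARS2, so 2 of the pairs share a partner. In CUTLL1 with shJMJD3 the cytosolic gene was lower in 7 pairs and higher in 8, with a median difference of 0.04.

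**Figure D3:**
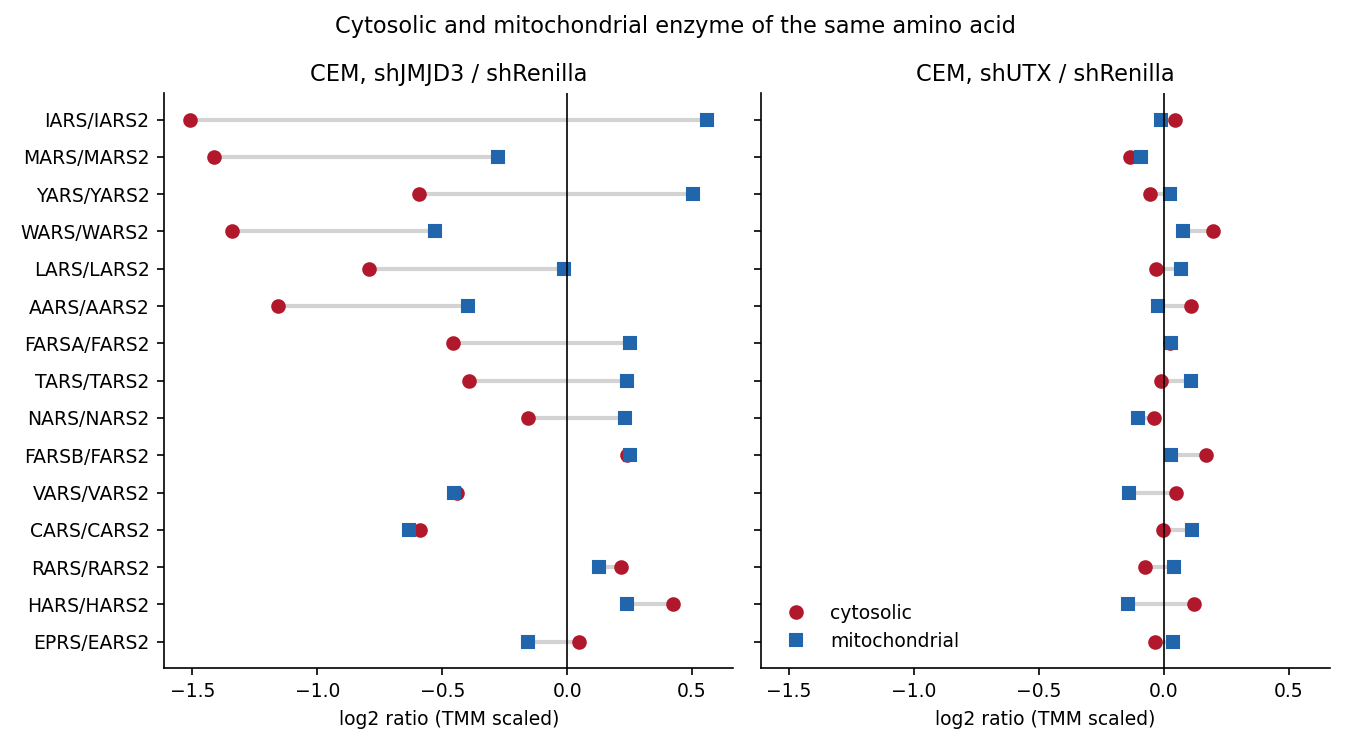
Log2 ratios (horizontal axes, TMM scaled) of the cytosolic and mitochondrial enzyme for the same amino acid in CEM, for shJMJD3 over shRenilla and for shUTX over shRenilla; a grey line joins each pair. With shJMJD3 the cytosolic point lies lower in 10 of 15 pairs, with a difference of -2.07 for isoleucine, and with shUTX in 8 of 15 with short lines.

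In CUTLL1, shJMJD3 left nearly all synthetases within 1.5-fold of the larger shRenilla column. The cytosolic median was -0.04 and the mitochondrial median -0.07, against -0.0021 over all 19772 genes measured. WARS was the only cytosolic member called lower and MARS2 the only mitochondrial one, and 0 members were higher. Over all genes 7.23% were lower and 8.63% higher. WARS had 59.0 CPM with shJMJD3, 131 with shUTX, 111 in the larger and 148 in the smaller shRenilla column, a ratio of -0.76 (95% interval -0.79 to -0.73) to the larger column. Its shJMJD3 column stood below the other 3. MARS2, for mitochondrial methionine, had 11.3 CPM with shJMJD3, 14.6 with shUTX, 19.3 in the larger and 22.0 in the smaller shRenilla column, a ratio of -0.62 (95% interval -0.69 to -0.54), with shJMJD3 and shUTX both below the control columns.

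Other members that stood low with shJMJD3 in CEM lay closer to the control in CUTLL1, a difference between lines that cannot be tested with 1 column each. IARS had 375 CPM with shJMJD3, 599 with shUTX, 505 in the larger and 671 in the smaller shRenilla column, a ratio of -0.28. SARS had 137 CPM with shJMJD3, 168 with shUTX, 132 in the larger and 177 in the smaller shRenilla column, a ratio of 0.21, and MARS had 171 CPM with shJMJD3, 210.3 with shUTX, 179 in the larger and 229 in the smaller shRenilla column, a ratio of 0.09. SARS and MARS were thus slightly above the larger control column in CUTLL1 and low in CEM. AARS had 159 CPM with shJMJD3, 269 with shUTX, 181 in the larger and 253 in the smaller shRenilla column, a ratio of -0.04, and LARS had 161 CPM with shJMJD3, 250.1 with shUTX, 217 in the larger and 269 in the smaller shRenilla column, a ratio of -0.28. GARS had 287 CPM with shJMJD3, 412 with shUTX, 317 in the larger and 411 in the smaller shRenilla column, a ratio of 0.01. KARS, the other enzyme that serves both compartments, had 191 CPM with shJMJD3, 229 with shUTX, 226 in the larger and 266 in the smaller shRenilla column, a ratio of -0.09. All 4 lay within 1.5-fold.

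DARS and QARS again had positive ratios in CUTLL1. DARS had 301 CPM with shJMJD3, 423 with shUTX, 248 in the larger and 355 in the smaller shRenilla column, a ratio of 0.44 (95% interval 0.42 to 0.45), and QARS had 189 CPM with shJMJD3, 298 with shUTX, 172 in the larger and 232 in the smaller shRenilla column, a ratio of 0.29 (95% interval 0.27 to 0.31). CARS had 36.7 CPM with shJMJD3, 49.5 with shUTX, 32.5 in the larger and 46.7 in the smaller shRenilla column, a ratio of 0.33, and YARS had 137 CPM with shJMJD3, 166 with shUTX, 130.5 in the larger and 172 in the smaller shRenilla column, a ratio of 0.22. These 4 were the highest cytosolic members there, each short of 1.5-fold. CARS and YARS had the opposite sign in CEM. AARS2 had 26.5 CPM with shJMJD3, 36.3 with shUTX, 36.5 in the larger and 42.3 in the smaller shRenilla column, a ratio of -0.31, the second lowest mitochondrial value.

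The CUTLL1 control itself was uneven in these genes, and the ratios moved with the part used. Between the remainder and the smaller control column, scaled to their totals, the cytosolic members had a median log2 difference of -1.03, running from -1.68 (CARS) to -0.06 (VARS). The mitochondrial median was -0.56 and that of all genes -0.60. Over the smaller column the cytosolic median of shJMJD3 was -0.11, with WARS at -0.95. Over the remainder it was 0.22, with 7 cytosolic members higher, DARS at 1.24, CARS at 1.14 and WARS at -0.33. The sign of the CUTLL1 cytosolic median therefore depended on the control column, while WARS was below 0 over each part. DARS and QARS were above 0 over each part with TMM scaling. Scaled to column totals both lay below the smaller column, with DARS at 301 CPM in shJMJD3 cells and 355 in that column, and QARS at 189 CPM in shJMJD3 cells and 232 in that column.

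**Figure D4:**
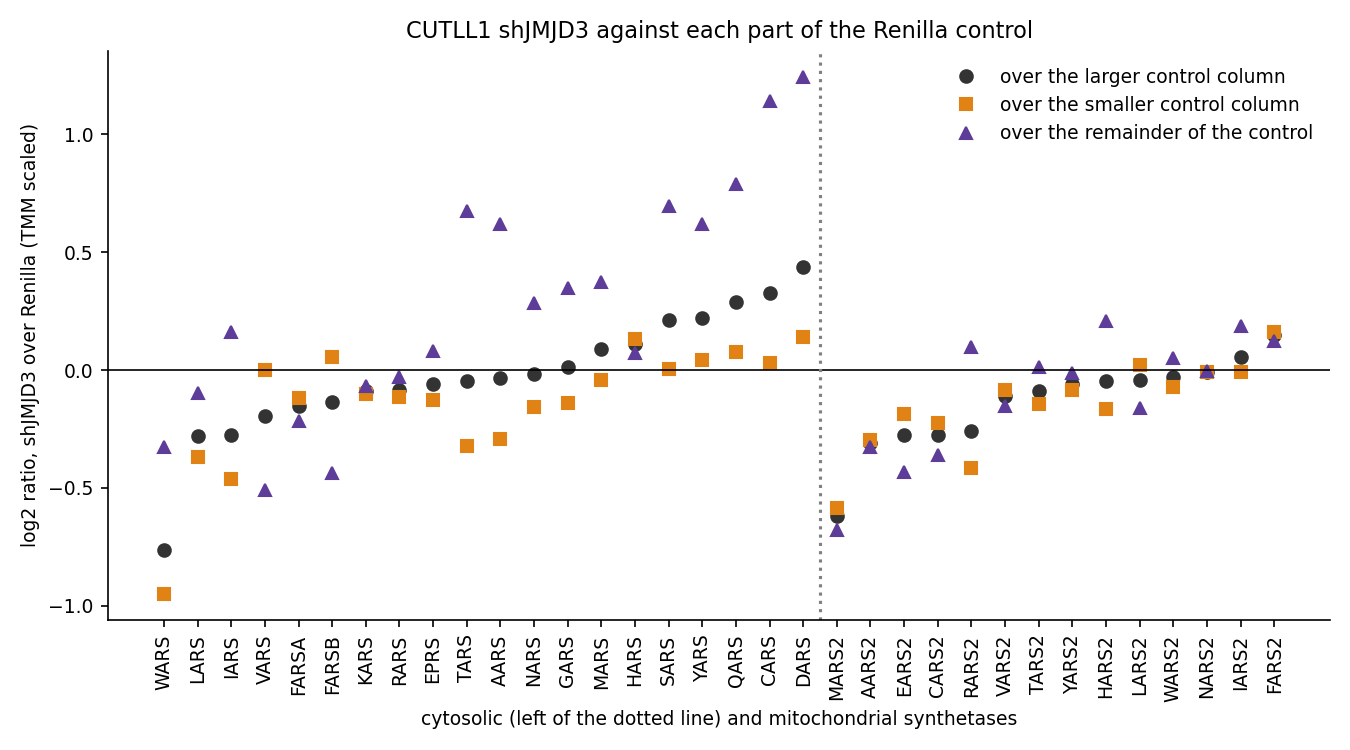
Log2 ratio of CUTLL1 shJMJD3 over each part of the shRenilla control (vertical axis, TMM scaled) for every synthetase. Cytosolic points over the remainder lie as high as 1.24 (DARS), while mitochondrial points from the 3 parts stay closer together, MARS2 the lowest of them over each part.

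With shUTX, no synthetase stood 1.5-fold from shRenilla in either line. In CEM 3.32% of 16791 measured genes were higher and 4.05% lower, and in CUTLL1 3.5% of 16886 genes were higher and 2.27% lower. The CEM medians were 0.04 (cytosolic) and 0.03 (mitochondrial), and the CUTLL1 medians were -0.07 and -0.10. The shUTX and shJMJD3 ratios of a line share control counts, so they are given side by side only. QARS had a shUTX ratio of 0.38 (95% interval 0.35 to 0.42) in CEM and 0.40 (95% interval 0.38 to 0.42) in CUTLL1, and DARS had 0.36 (95% interval 0.33 to 0.39) and 0.30 (95% interval 0.28 to 0.31). QARS and DARS were the 2 highest members in each line.

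Other members lay closer to shRenilla with shUTX, and the ratios here are of shUTX over shRenilla. In CEM, WARS was at 0.20 and FARSB at 0.17 on the high side. On the low side HARS2, the mitochondrial histidine enzyme, had 28.9 CPM in CEM shJMJD3 cells, 26.8 in shUTX cells and 30.3 in shRenilla cells, a ratio of -0.14. VARS2 was at -0.14, MARS at -0.13 and NARS2, for asparagine, at -0.10, with 28.2 CPM in CEM shJMJD3 cells, 27.0 in shUTX cells and 29.8 in shRenilla cells. In CUTLL1, MARS2 was lowest at -0.55 (95% interval -0.64 to -0.46). EARS2, for mitochondrial glutamate, had 28.2 CPM with shJMJD3, 30.3 with shUTX, 38.0 in the larger and 41.7 in the smaller shRenilla column, a ratio of -0.42 to the smaller column. FARSB had 82.7 CPM with shJMJD3, 76.8 with shUTX, 101 in the larger and 103 in the smaller shRenilla column, a ratio of -0.39, and CARS2 had 32.6 CPM with shJMJD3, 37.7 with shUTX, 43.9 in the larger and 49.5 in the smaller shRenilla column, a ratio of -0.35. EPRS had 142 CPM with shJMJD3, 225 with shUTX, 165 in the larger and 202 in the smaller shRenilla column, a ratio of 0.20, and WARS2 had 9.08 CPM with shJMJD3, 13.3 with shUTX, 10.3 in the larger and 12.4 in the smaller shRenilla column, a ratio of 0.15. Over the larger control column the CUTLL1 medians with shUTX were 0.22 (cytosolic) and 0.14 (mitochondrial), with 2 members higher.

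Setting shJMJD3 directly against shUTX gave a CEM pattern close to that against shRenilla, with which it shares the shJMJD3 column. Of 20 cytosolic members 8 were lower and 2 higher, with a median of -0.51. Of 14 mitochondrial members 2 were lower (CARS2 and WARS2), with a median of -0.02. Over all 16229 genes 23.3% were lower and 22.2% higher. The lowest were IARS at -1.58, SARS at -1.57 and WARS at -1.57, and the higher were DARS at 1.33 and QARS at 0.88. The cytosolic gene lay below its mitochondrial partner in 12 of 15 pairs. In CUTLL1 the medians were -0.24 and -0.21, 1 member was lower (WARS, -0.97) and 0 were higher, where 10.2% of 18287 genes were lower and 17.3% higher and the median of all genes was -0.12.

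WARS was the only synthetase at least 1.5-fold lower with shJMJD3 in both lines, against shRenilla (the larger CUTLL1 column) and against shUTX. In CUTLL1 the call against shRenilla held over the smaller column, but over the remainder 0 cytosolic members were lower. Of the genes measured in both lines, 2.47% were lower and 2.56% higher in both with shJMJD3 against shRenilla, and 3.84% lower and 3.39% higher against shUTX. No synthetase was higher in both, and 1 lower of 34 is close to the share of all genes. Over the 6 columns, with the cell line as a block and 2 residual degrees of freedom, edgeR's quasi-likelihood test gave WARS a log2 ratio of -1.04 (SE 0.24, unadjusted p = 0.0078, Benjamini-Hochberg adjusted p = 0.80) between shJMJD3 and shRenilla. Against shUTX it gave -1.26 (SE 0.24, unadjusted p = 0.0036, adjusted p = 0.51). That test called 0 synthetases and 0 genes in any of the 3 comparisons. At an unadjusted p under 0.05 it had 936 genes (3.9% of 24003) between shJMJD3 and shRenilla, WARS the only synthetase among them. Between shJMJD3 and shUTX it had 1945 (8.1%), with WARS, AARS and LARS, and between shUTX and shRenilla 39 (0.169% of 23112), with 0 synthetases.

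DESeq2 on the same design called 115 genes (0.479%) between shJMJD3 and shRenilla, 313 (1.3%) between shJMJD3 and shUTX and 1 (0.00433%) between shUTX and shRenilla. Of the synthetases it called WARS alone, in the comparison of shJMJD3 with shUTX (log2 ratio -1.21, adjusted p = 0.0090). The other settings of edgeR gave WARS an adjusted p between 0.35 and 1.00 in that comparison and between 0.63 and 1.00 against shRenilla, where DESeq2 gave 0.084. WARS shares 272 exonic bases on the opposite strand with WDR25. Its mitochondrial partner WARS2 had a shJMJD3 ratio of -0.03 in CUTLL1 and -0.53 in CEM.

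Genes around tRNA charging were read from lists chosen beside the members. The amino acid response list, the ATF4 program without synthetases, had 28 measured genes. With shJMJD3 over shRenilla in CEM 20 were lower and 2 higher, with a median of -1.12. Over all genes 23.9% were lower and 22.4% higher there. CHAC1, which degrades glutathione, had 1.11 CPM in shJMJD3 cells and 36.8 in shRenilla cells, a ratio of -4.72. ATF5, an ATF4-related factor, had 57.8 CPM in shJMJD3 cells and 1324 in shRenilla cells, a ratio of -4.21. SLC7A11, the cystine transporter, had 6.30 CPM in shJMJD3 cells and 127 in shRenilla cells, a ratio of -4.02. These ratios were wider than that of any synthetase. In CUTLL1 the list had 2 higher and 0 lower, with a median of 0.08 over the larger control column. Over all genes 8.63% were higher and 7.23% lower there, so 2 higher of 28 is close to that share. ATF4 itself had a ratio of 0.89 in CUTLL1, with 238 CPM in shJMJD3 cells, 143 in the larger and 103 in the smaller shRenilla column. The ATF4 ratio over the other parts of the control was not computed. In CEM ATF4 had 136 CPM in shJMJD3 cells and 202 in shRenilla cells, a ratio of -0.26, short of the limit. With shUTX over shRenilla the list had 0 lower in either line, 0 higher in CEM and 1 higher in CUTLL1. The medians were -0.04 in CEM and 0.12 in CUTLL1. In CUTLL1 3.5% of all genes were higher with shUTX, so 1 of 28 is close to that share. The gene higher there was DDIT4, a stress-induced inhibitor of mTORC1, at 673 CPM in shUTX cells and 411 in the smaller shRenilla column, a ratio of 0.75. DDIT4 was also among the 2 higher with shJMJD3 in CEM, at 339 CPM in shJMJD3 cells and 85.8 in shRenilla cells, a ratio of 2.29. Between shJMJD3 and shUTX in CUTLL1 the list had 11 lower and 1 higher, with a median of -0.44, where 10.2% of all genes were lower and 17.3% higher. The CUTLL1 count of the list therefore depended on the column set beside shJMJD3. In CEM that comparison had 20 lower and 1 higher, with a median of -1.04, where 23.3% of all genes were lower and 22.2% higher.

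**Figure D5:**
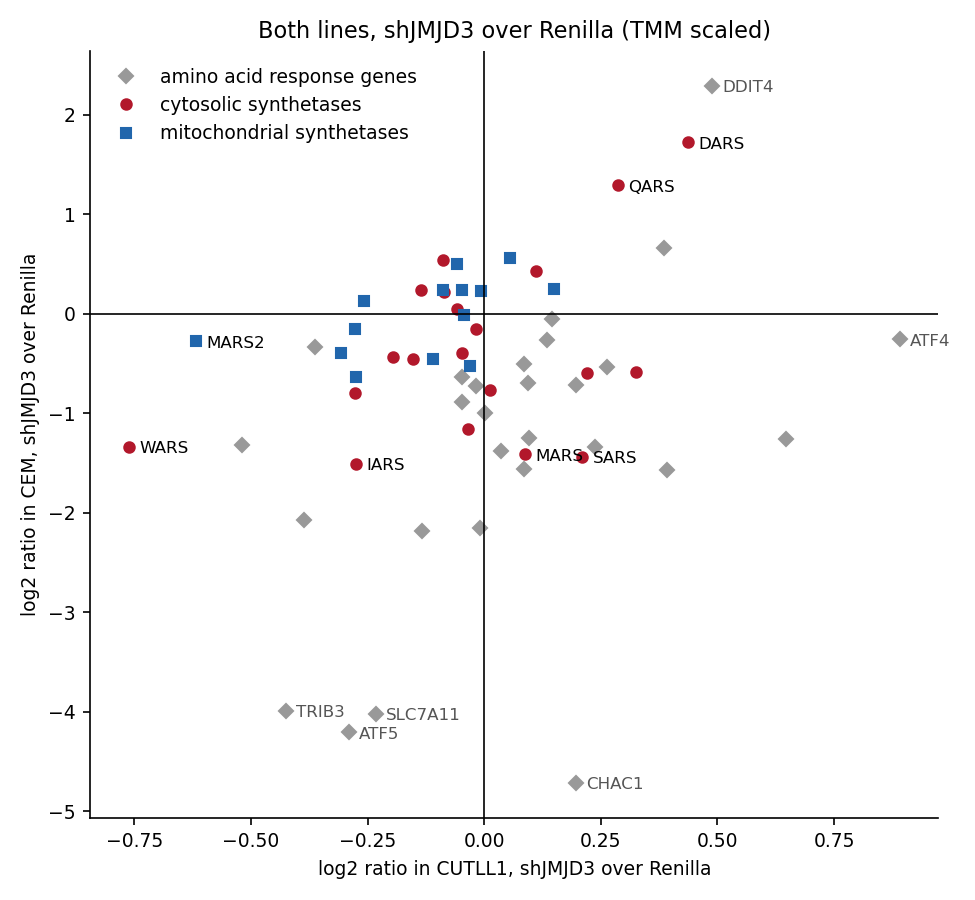
Log2 ratio of shJMJD3 over shRenilla in CUTLL1 (horizontal axis, larger control column) and in CEM (vertical axis), TMM scaled, 1 point per gene, for cytosolic and mitochondrial synthetases and amino acid response genes. In CEM most response genes and 9 cytosolic synthetases lie low, and WARS is the cytosolic synthetase that is lowest in CUTLL1.

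Synthetases outside the member list were read the same way. TARSL2, a cytosolic threonine enzyme related to TARS, had 5.88 CPM in shJMJD3 cells and 20.1 in shRenilla cells of CEM, a ratio of -1.46. PARS2, the mitochondrial proline enzyme, had a ratio of -0.48, short of the 1.5-fold limit. Neither was called in CUTLL1, nor with shUTX in either line. In the mitochondrial tRNA charging list, 1 of 5 genes was called in CEM with shJMJD3, TRMU, which modifies mitochondrial tRNA, at 0.85. Among 7 mitochondrial translation factors 1 was higher there, the initiation factor MTIF3 at 1.28. Among 5 kinases and partners that sense uncharged tRNA or other stress 1 was higher, EIF2AK1 at 0.72. Over all genes of that CEM comparison 22.4% were higher and 23.9% lower. A list of 5 or 7 genes with 1 called does not exceed that share. The 5 cytosolic elongation factors had 0 called in the comparisons of either hairpin with shRenilla in either line. Between shJMJD3 and shUTX in CUTLL1 3 were higher and 1 lower, with a median of 0.95, where 17.3% of all genes were higher and 10.2% lower. EEF1A1, which carries aminoacyl-tRNA to the ribosome, had 1214 CPM in shJMJD3 cells and 1125 in the larger shRenilla column, and 49.6 CPM in shUTX cells and 59.2 in the smaller shRenilla column. It therefore differed between the authors' CUTLL1 tables more than between hairpin and control within either. EEF1A1 is known to have near-identical copies in the genome, and how their reads were counted was not tested.

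The interferon gamma list, which holds known co-regulated partners of WARS, had medians above 0 where WARS stood lower. With shJMJD3 over shRenilla 3 of 6 measured genes were higher and 0 lower in CUTLL1 (median 0.58), where 8.63% of all genes were higher. In CEM 2 of 6 were higher and 0 lower (median 0.54), where 22.4% of all genes were higher. IRF1 at -0.25 and GBP2 at -0.44 lay below 0 in CEM, short of the 1.5-fold limit. PSMB9, an immunoproteasome subunit, had ratios of 1.33 in CUTLL1 and 1.30 in CEM, where WARS had -0.76 and -1.34. With shUTX the medians were -0.08 in CUTLL1 and 0.01 in CEM. The part of interferon signalling in the WARS ratios was not tested.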

How the data were processed

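The authors deposited 6 tables of raw read counts per gene, 1 per line and pair of hairpins; the columns hold counts, per the file headers. Per the labels' protocols, RNA was selected on oligo-dT beads or with Ribominus, and stranded libraries (dUTP method) gave 50-base single reads. CASAVA, TopHat and hg19 appear, without versions, in the submitters' processing notes. The sources used here do not give the program or annotation that made the counts, or whether it used strand.

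CPM values are counts over column totals. Ratios used edgeR 4.0.16 TMM factors, limma 3.58.1 being loaded with it, and a prior count of 2; scaling to column totals would shift all shJMJD3 to shRenilla ratios by -0.31 in CEM and -0.15 in CUTLL1. Across lines, edgeR's quasi-likelihood F test ran on all genes passing filterByExpr, with calls at a p under 0.05 after Benjamini-Hochberg adjustment, with DESeq2 1.42.0 as alternative (R 4.3.3, Python 3.11.15). Lines served as replicates with the line as a block. The p-values therefore measure hairpin differences against how much those differences varied between the 2 lines, not the spread between lines. Both steps were tested on simulated data. The alternatives were other scalings, count minimums, prior count, fold, tool, filter, block and control columns. Exonic lengths and overlaps came from GENCODE 29 and promoters from RefSeq.

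The members and lists were chosen with earlier results of these data known. Levels in every column are named for members apart in both lines, for the 4 lowest and 4 highest of each line and hairpin against shRenilla, and for GARS, KARS, WARS and WARS2; of each list up to 3 genes furthest from 0 per line and hairpin are named, and a gene of these lists is not reported here. Fibroblast markers summed to at most 9.68 CPM and erythroid markers to at most 0.915.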

Additional observations from a re-analysis of the deposited data

How the results depend on the processing

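Within a line, count minimums of 10 and 200 could not drop a member, since each had at least 685 counts, so they are no check on the members. A prior count of 0.5 left every count of members apart the same and the list medians nearly so. Scaling to column totals moved the CEM shJMJD3 to shRenilla medians to -0.76 (cytosolic) and -0.25 (mitochondrial), with 19 members apart in place of 12, all 12 among them. It moved those of shJMJD3 to shUTX in CEM to -0.76 and -0.27, the CEM cytosolic median of shUTX to -0.000737, and in CUTLL1 the medians of shJMJD3 to shRenilla to -0.20 and -0.23, of shJMJD3 to shUTX to -0.43 and -0.40 with 8 members apart, and the cytosolic median of shUTX to -0.11 with 1 apart. With RLE size factors 10 members stood apart in CEM with shJMJD3 against shRenilla, 2 higher and 8 lower, the cytosolic median of shUTX in CEM was 0.068 and that of shJMJD3 to shUTX in CUTLL1 was -0.18. At 2-fold, members apart numbered 7 in CEM against shRenilla, 6 in CEM against shUTX, and 0 in CUTLL1 for shJMJD3 against shRenilla and against shUTX. In CUTLL1 the other control column gave shJMJD3 a cytosolic median of -0.11, and shUTX medians of 0.22 and 0.14 with 2 apart. The remainder gave shJMJD3 medians of 0.22 and -0.0084 with 8 apart. Of the main 2, MARS2 was 1 of these and WARS was not. The remainder gave shUTX medians of 0.46 and 0.030 with 10 apart. The cause was not tested. Across lines, DESeq2 called 1 synthetase (WARS) between shJMJD3 and shUTX where edgeR called 0. No paired analysis was possible because the columns carry no replicate number, and for the same reason no replicate could be left out. Depth does not limit members of at least 685 counts; the single column per hairpin and line does.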
